A study of Mus musculus with 24 samples.

Results

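The miR-379 to miR-410 cluster was followed in hippocampal exosome-enriched fractions (EEFs) through 39 mature miRNAs (from mmu-mir-379-5p, here miR-379-5p, past mmu-mir-541-5p to mmu-mir-410-3p), matched by name from a list of 40 and found among the 1073 mature miRNA names with at least 1 read in 24 small RNA libraries; miR-654-3p was not analysed here. The 39 members came from 27 hairpins on the plus strand of mouse chromosome 12, at chr12:109709060-109743795 on GRCm38 (GENCODE M21), a stretch of 34736 bases. Both arms of 12 hairpins were among the members. The last 10 hairpins, from miR-382 to miR-410, lie within Mirg, a long non-coding RNA gene of the same strand. Those of miR-382, miR-668, miR-485, miR-412, miR-369 and miR-410 overlap its exons, whereas those of miR-154, miR-496a, miR-541 and miR-409 are intronic. The other hairpins, from miR-379 to miR-544, have no annotated host gene there.

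The miRNAs of this cluster lie in the imprinted Dlk1-Dio3 domain, are expressed from the maternal chromosome as part of long non-coding transcripts, and are abundant in the brain. Each hairpin is cut by Drosha and Dicer into a 5p and a 3p arm, and the arm kept in Argonaute recognises messenger RNAs mainly through its seed. Members are known in neurons for roles in dendrite growth and synapse scaling, and transcription of the cluster responds to neuronal activity through Mef2.

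EEFs were prepared from the hippocampi of male C57BL/6 mice (C57BL/6OlaHsd in the study's methods) aged 6 to 9 weeks, after injection of 0.3 μg kainic acid (KA) in 0.2 μl, or of the same volume of PBS (control), into the basolateral amygdala. KA given there provokes status epilepticus, which was curtailed with midazolam, and hippocampi were taken 24 h or 2 weeks later. The EEFs were obtained either by ultracentrifugation (UC), with 5 hippocampi pooled per sample, or with the ExoQuick precipitation kit, with 4 pooled, and were treated with RNase A before RNA was extracted. Isolation method, treatment and time gave 8 groups, with 3 libraries in each. A fraction of this kind comes from all cells of the tissue, and fewer vesicles of a cell type and less miRNA per vesicle cannot be told apart. The paper detected calretinin, its endoplasmic reticulum marker, with both methods. It detected a mitochondrial marker (porin) only with UC, where the exosome marker Flotillin1 was also more enriched. The part of such contaminants in the differences between methods was not tested.

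The sequences below are those of the members on which the results turn, as listed by RefSeq for GRCm38.p6, 5′ to 3′, with the seed (bases 2 to 8) in capitals. The first 2 are the most abundant members and the others those with the highest levels with the kit relative to UC.
miR-541-5p: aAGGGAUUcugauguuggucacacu
miR-410-3p: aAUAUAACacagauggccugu
miR-300-3p: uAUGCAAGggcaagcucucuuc
miR-369-3p: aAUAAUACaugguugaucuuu
miR-369-5p: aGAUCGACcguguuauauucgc
miR-154-5p: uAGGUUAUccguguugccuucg
miR-323-3p: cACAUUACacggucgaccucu
miR-495-3p: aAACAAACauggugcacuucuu
miR-380-3p: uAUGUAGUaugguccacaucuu

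The next sequences are the members that were lower with the kit than with UC.
miR-679-5p: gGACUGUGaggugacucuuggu
miR-412-5p: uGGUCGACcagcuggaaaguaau
miR-379-5p: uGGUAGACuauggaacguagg
miR-382-5p: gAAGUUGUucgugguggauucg
miR-323-5p: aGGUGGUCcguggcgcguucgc
miR-409-3p: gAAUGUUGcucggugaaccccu
miR-329-5p: aGAGGUUUucugggucucuguu

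RefSeq's table held a mature sequence for 36 of the 39 members. miR-487b-3p, miR-539-3p and miR-485-5p are named without one. The 36 members had 36 different seeds, so no pair of them shared a seed, although they come from neighbouring hairpins. Some seeds recurred in listed miRNAs outside the members. The seed AUAUAAC of miR-410-3p is also that of miR-344d-3p and miR-344e-3p, that of miR-379-3p (AUGUAAC) is shared with miR-411-3p, that of miR-329-3p (ACACACC) with miR-362-3p, and that of miR-495-3p (AACAAAC) with miR-1192. miR-410-3p had 54075 reads in all, against 702 for both miR-344 forms together, whereas miR-329-3p had 43 reads against 210 for miR-362-3p.

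Total counts were between 85436 and 169639 per UC library and between 154884 and 676726 per kit library, so a single read was worth 5.89 to 11.7 CPM (counts scaled to a library total of 1000000) with UC but 1.48 to 6.46 CPM with the kit. Counts of the brain miRNAs miR-124-3p, miR-9-5p and miR-128-3p summed to at least 27404 CPM in every library. The 12 UC and the 12 kit libraries were made separately, from pools of different size, and these differences cannot be told apart from the isolation method.

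The members held 170029 of 5371420 reads (3.17%). These reads were concentrated in miR-541-5p, with 95062 reads, and miR-410-3p, with 54075, which together made up 87.7% of them. miR-300-3p followed with 4653 reads, miR-369-3p with 2882, miR-154-5p with 2286 and miR-369-5p with 2274. Of the 39 members, 9 had at least 1000 reads over the 24 libraries and 18 had fewer than 100. A read of 15 members was present in every library. miR-1193-3p and miR-487b-5p had no read in at least 20 libraries. Between 21 and 29 members were detected per UC library and between 31 and 36 per kit library, where depth was greater. The plot of member levels along the cluster shows that the top pair, miR-541-5p and miR-410-3p, come from the last 5 hairpins at its 3′ end, whereas miR-300-3p and miR-154-5p lie upstream of them.

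**Figure D1:**
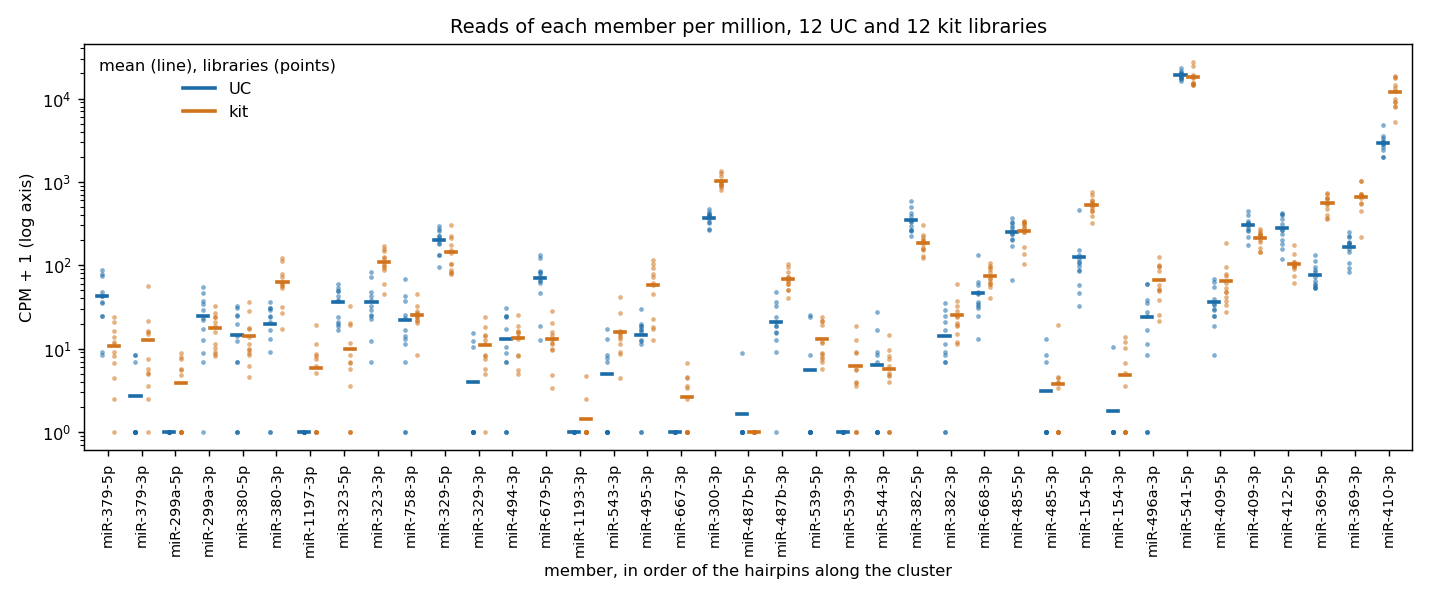
CPM + 1 on a log axis for the 39 members in the order of their hairpins along the cluster, with 1 point per library and a line at the mean of the 12 UC (blue) or 12 kit (orange) libraries. The means of miR-541-5p were 19082 (UC) and 17920 CPM (kit), and those of miR-410-3p 2962 and 11970 CPM, above those of all other members.

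miR-541-5p ranked 9th of all miRNAs with UC and 14th with the kit by mean CPM. It measured 16314 to 22969 CPM with UC (median 18663) and 14579 to 27117 CPM with the kit (median 16627). miR-410-3p ranked 38th with UC and 17th with the kit, at 1967 to 4880 CPM (median 2915) and 5191 to 18649 CPM (median 11093). The ranges of miR-541-5p overlapped between the methods, and those of miR-410-3p did not. miR-541-5p therefore made up 73.1 to 83.0% of member reads with UC but 39.1 to 75.6% with the kit, and miR-410-3p 7.67 to 18.3% and 14.5 to 48.0%.

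The summed share of the members was 2.18 to 2.81% of the reads of a UC library (mean 2.46% ± 0.171, SD, n = 12) and 2.74 to 4.08% of a kit library (3.42% ± 0.409, SD, n = 12). The ranges overlapped through 1 kit library, at 2.74%, and 1 UC library, at 2.81%. A list of 26 miRNAs from upstream in the same imprinted domain is called the Rtl1 antisense cluster here. It was drawn by name, with no check that each hairpin is antisense to Rtl1. Its share went the other way, from 25.9% ± 5.47 (SD, n = 12) with UC to 14.3% ± 1.73 with the kit. Another 32 names from hairpins of the distal cluster that are not members made up 0.434% ± 0.0729 (SD, n = 12) with UC and 0.917% ± 0.101 with the kit. The share of the 39 members depends on the total, of which miR-127-3p of the Rtl1 antisense cluster was a large part. With miR-127-3p left out of the total, the members' share was 3.25% with UC (2.90 to 3.73%) and 3.83% with the kit (3.13 to 4.57%), with overlapping ranges. Among the members, miR-410-3p differed most in CPM, with means of 2962 (UC) and 11970 (kit). The members other than miR-541-5p and miR-410-3p held 0.255% of reads with UC and 0.435% with the kit.

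Across treatment and time, the summed share was as follows. In UC libraries it was 2.52, 2.35 and 2.53% (replicates 1 to 3) in controls and 2.40, 2.18 and 2.35% after KA at 24 h, and 2.57, 2.30 and 2.43% against 2.81, 2.40 and 2.67% at 2 weeks. In kit libraries it was 3.87, 3.59 and 3.28% in controls and 2.74, 3.75 and 3.39% after KA at 24 h, and 3.09, 3.12 and 4.08% against 3.11, 3.89 and 3.19% at 2 weeks. The 3 values of each KA group overlapped those of its control group. At 2 weeks, deviations of same-numbered KA and control libraries from their group means correlated weakly (0.111 to 0.310). There the share was higher after KA in 3 of 3 pairs with UC and in 2 of 3 with the kit, with no test made. At 24 h these correlations ran from −0.246 to 0.112, so directions by pair are not given. The plot of shares by group shows the values for the sum and for the leading pair of members.

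**Figure D2:**
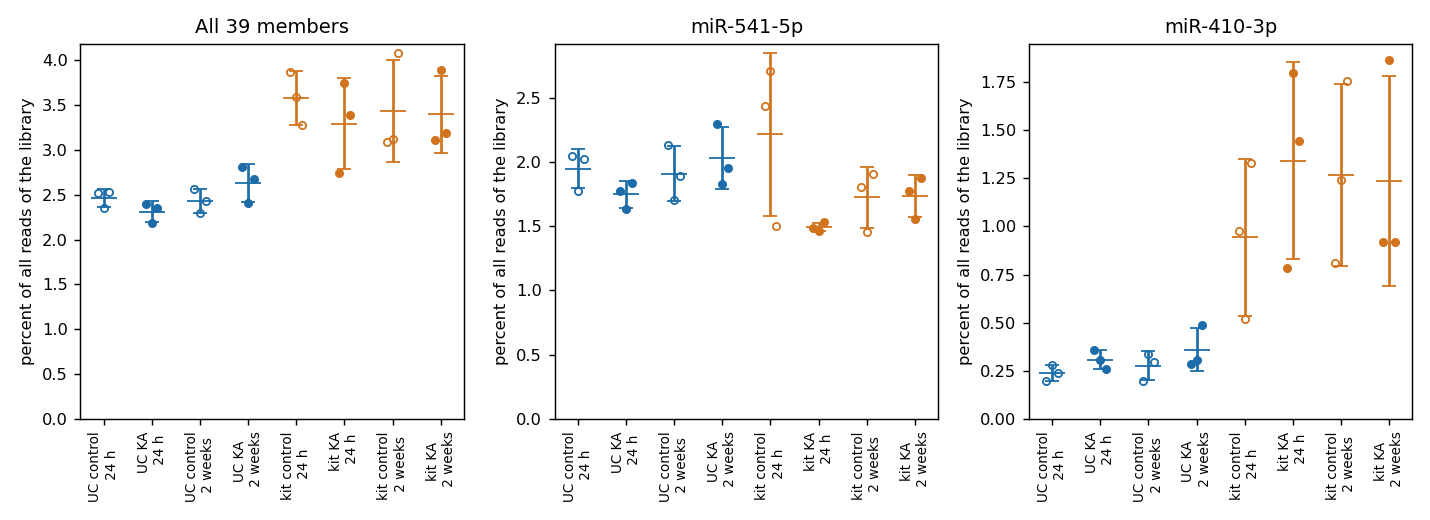
Percent of all reads of a library that came from all 39 members, from miR-541-5p and from miR-410-3p, by group, with 1 point per library (open, control; filled, KA) and the mean with SD over 3 libraries. The summed share lies between 2.18 and 2.81% in UC libraries and between 2.74 and 4.08% in kit libraries, and KA and control groups overlap within each method and time.

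The comparison between the isolation methods asks whether the members are recovered alike by UC and by the kit. Over all 24 libraries, 26 members passed the filter (CPM over 1 in at least 6 of the 12 libraries of each method), and 19 of them differed between kit and UC at an adjusted p-value under 0.05 by edgeR's quasi-likelihood test. Of these, 12 were higher and 7 lower with the kit. Among all 397 miRNAs tested, 66.2% were called, 33.2% as higher and 33.0% as lower with the kit, so the members' share called (19 of 26) was near that of all miRNAs. The median log2 difference of the members was 0.40, against −0.02 over all miRNAs tested. The members' median depended on the filter. With at least 10 counts in at least 6 libraries (11 members tested) it was −0.02, against −0.13 over all. Without a filter it was 0.89, against 0.06 over all. In the Rtl1 antisense cluster, 7 of 22 tested were higher and 12 lower with the kit (median −0.64), and among the other names of the distal cluster 7 of 14 were higher and 6 lower (median 0.74).

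The largest difference among the members was that of miR-369-5p, which measured 52.2 to 132 CPM with UC (median 67.7) and 355 to 734 CPM with the kit (median 556). Every kit library was above every UC library, and the log2 difference was 2.81 (SE 0.20, adjusted p = 2.73e-14 with edgeR). Its partner from the other arm, miR-369-3p, which is known to act on AU-rich elements of TNF-alpha messenger RNA, measured 83.1 to 248 CPM with UC (median 181) and 220 to 1037 CPM with the kit (median 678). The log2 difference was 1.92 (SE 0.20, adjusted p = 3.87e-10 with edgeR), with an overlap of the ranges.

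For miR-410-3p, the last hairpin of the cluster, the log2 difference was 1.96 (SE 0.19, adjusted p = 5.25e-11 with edgeR). miR-300-3p measured 261 to 468 CPM with UC (median 380) and 789 to 1359 CPM with the kit (median 972), without overlap, and its log2 difference was 1.43 (SE 0.15, adjusted p = 1.83e-10). miR-369-5p, miR-410-3p and miR-300-3p were the 3 members whose UC and kit ranges did not overlap, all higher with the kit, while 10.8% of all miRNAs tested did not overlap.

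miR-154-5p measured 31.3 to 463 CPM with UC (median 101) and 323 to 763 CPM with the kit (median 532), a log2 difference of 2.09 (SE 0.27, adjusted p = 3.31e-08 with edgeR). The UC value of 463 CPM came from 1 KA library at 2 weeks, and the other UC libraries had at most 152 CPM. miR-487b-3p (log2 difference 1.73, SE 0.29, adjusted p = 3.56e-06), miR-323-3p (1.59, SE 0.29, adjusted p = 1.08e-05) and miR-495-3p (1.89, SE 0.41, adjusted p = 0.000139) were less abundant. miR-487b-3p measured 0 to 47.0 CPM with UC (median 17.8) and 39.9 to 103.3 CPM with the kit (median 64.2), miR-323-3p 5.94 to 81.9 CPM (median 29.6) and 44.5 to 171 CPM (median 105), and miR-495-3p 0 to 29.1 CPM (median 15.1) and 11.8 to 114 CPM (median 58.6). All 3 overlapped between the methods. The remaining calls in this direction were miR-380-3p, miR-496a-3p, miR-409-5p and miR-668-3p, with log2 differences of 0.66 to 1.59.

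Among the members lower with the kit, miR-679-5p had the largest log2 difference, −2.60 (SE 0.32, adjusted p = 7.48e-09 with edgeR), at 11.7 to 132 CPM with UC (median 69.6) and 2.36 to 27.6 CPM with the kit (median 11.3). miR-379-5p, the first hairpin of the cluster and known for its part in dendrite growth, measured 7.28 to 86.5 CPM with UC (median 38.5) and 0 to 22.8 CPM with the kit (median 9.18), with a log2 difference of −2.21 (SE 0.40, adjusted p = 1.15e-05). Both rest on few reads, at most 13 per library for miR-379-5p.

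miR-412-5p, with 119 to 422 CPM with UC (median 264) and 60.6 to 176 CPM with the kit (median 98.5), had a log2 difference of −1.44 (SE 0.21, adjusted p = 3.93e-07 with edgeR). miR-323-5p measured 15.5 to 58.5 CPM with UC (median 36.6) and 0 to 31.0 CPM with the kit (median 5.85), a log2 difference of −2.00 (SE 0.38, adjusted p = 1.92e-05). All of these ranges overlapped.

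miR-382-5p measured 226 to 589 CPM with UC (median 334) and 121 to 301 CPM with the kit (median 183), a log2 difference of −0.95 (SE 0.18, adjusted p = 1.52e-05). miR-409-3p, at 172 to 449 CPM with UC (median 308) and 142 to 270 CPM with the kit (median 229), differed by −0.56 (SE 0.17, adjusted p = 0.00402), and miR-329-5p, at 95.0 to 291 CPM (median 203) and 76.8 to 303 CPM (median 120), by −0.57 (SE 0.21, adjusted p = 0.0188). miR-329-5p lost its call when 1 kit library (KA, 2 weeks, replicate 1) was left out (log2 difference −0.49), and miR-668-3p and miR-409-5p lost theirs in 12 and 8 of the 24 fits that each left out 1 library.

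The arms of a hairpin could differ in direction. In the hairpin of miR-323, the 3p arm was higher and the 5p arm lower with the kit, and in that of miR-409 the 5p arm was higher and the 3p arm lower. In that of miR-369, both arms were higher. The 7 members that did not pass the test were miR-541-5p, miR-382-3p, miR-299a-3p, miR-758-3p, miR-485-5p, miR-380-5p and miR-494-3p. For miR-541-5p the log2 difference was −0.15 with a 95% interval of −0.38 to 0.07, and for miR-485-5p, a regulator of synaptic strength, it was 0.06 (−0.37 to 0.49), at 65.3 to 365 CPM with UC (median 247) and 102 to 340 CPM with the kit (median 284). The intervals of the low members were wide, as for miR-494-3p with −0.84 to 0.86. The plot of kit minus UC differences orders the 26 members.

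**Figure D3:**
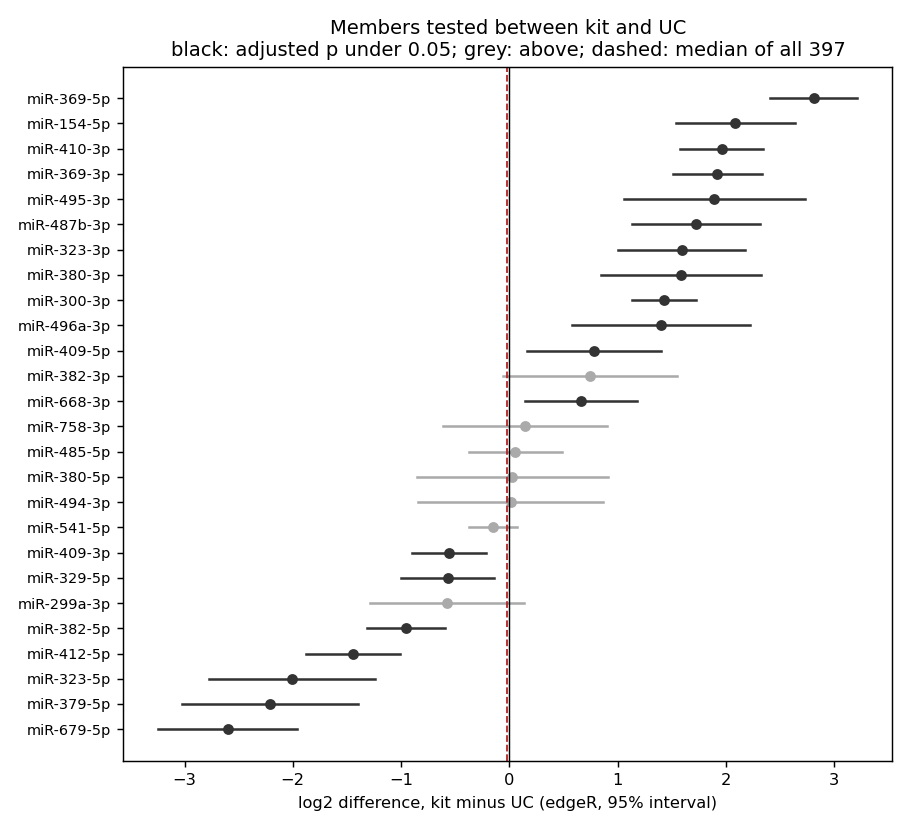
Log2 difference between kit and UC for the 26 members tested (edgeR, 12 libraries of each method), with the 95% interval as a line; black marks an adjusted p under 0.05, grey a value above it, and the dashed line the median of all 397 miRNAs (−0.02). The differences run from −2.60 for miR-679-5p to 2.81 for miR-369-5p.

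The other 13 members did not pass the filter in both methods. miR-299a-5p, miR-1197-3p, miR-667-3p, miR-539-3p and miR-1193-3p had no UC read, whereas 34 of the 39 members and 859 of all 1073 names had one. A count of 0 allows up to 1.92 CPM over the 1559239 UC reads together (3 reads, counting error only). Over the pooled kit reads, miR-1197-3p was at 5.25 CPM (20 reads in 7 libraries) and miR-539-3p at 4.98 CPM (19 reads in 9 libraries). For miR-299a-5p it was 2.36 CPM (9 reads in 6 libraries). These kit levels have a counting error and a spread between libraries of their own, so no least fold difference is given. miR-667-3p, with 7 kit reads, was not above the UC limit of 1.92 CPM, and miR-1193-3p had 2 kit reads.

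Base composition moved with the method. Over the 24 tested members with a sequence, the GC content of the mature miRNA and the log2 difference between kit and UC had a Spearman rho of −0.46 and a Pearson r of −0.50. Over all 359 tested miRNAs with a sequence, rho was −0.56 and r −0.55. These correlations are across miRNAs measured in the same libraries, which are not independent replicates. The 5 members with a GC content under 40% (miR-369-3p, miR-380-3p, miR-382-3p, miR-495-3p and miR-410-3p, printed above where called) had log2 differences of 0.75 to 1.96, with a median of 1.89. The 5 members over 50% had a median of −0.56 and ran from −2.60 (miR-679-5p) to 1.59 (miR-323-3p). Over all miRNAs, these medians were 1.11 and −0.87. Its part in the differences between methods was not tested.

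Markers of cell types moved with the method as well. The 3 brain markers summed to 27404 to 39339 CPM with UC and, without overlap, to 39590 to 75172 CPM with the kit, where miR-9-5p and miR-128-3p were higher on average and miR-124-3p averaged 5602 and 5677 CPM. The 3 oligodendrocyte markers (miR-219a-2-3p, miR-219a-5p and miR-338-3p) summed to 6137 to 10956 CPM with UC against 1760 to 2255 CPM with the kit, carried by miR-219a-2-3p (means of 7007 and 854 CPM), while miR-338-3p overlapped (884 to 1634 and 755 to 1376 CPM). The 2 endothelial markers (both arms of miR-126a) summed to 218 to 609 CPM and 2101 to 3242 CPM. The 4 red cell markers (310 to 1247 and 421 to 1519 CPM), the 3 choroid plexus markers (307 to 2867 and 662 to 3218 CPM) and the 3 microglia and leukocyte markers (8.03 to 95.0 and 54.0 to 151 CPM) overlapped between the methods. The red cell sum was carried by miR-486b-5p (UC mean 543 CPM, kit mean 768 CPM). Its other markers were low, but the kit means of miR-451a (33.8 CPM) and miR-144-3p (29.5 CPM) exceeded their UC means (1.56 and 2.01 CPM). Both reached 0 in some libraries of each method, so their ranges overlapped. miR-486a-5p was at 0 in all UC libraries and averaged 0.214 CPM over the kit libraries. The part of these cell type markers in the differences of the members was not tested.

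miR-300-3p and miR-381-3p, which is not a member, come from hairpins of the same cluster and differ at 3 of 22 bases, shown here in capitals.
miR-300-3p: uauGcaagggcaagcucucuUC
miR-381-3p: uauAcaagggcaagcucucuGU
From miR-381-3p to miR-300-3p, counted from the 5′ end, the changes are A4G, G21U and U22C. Of 4653 miR-300-3p reads, 145 (3.12%) were listed with their last 2 bases replaced by GU and no other change, in 22 libraries. Which bases such an entry replaces was inferred from the deposited table, as the sources used here do not state its position convention. Such a read is miR-300-3p with the last bases of miR-381-3p, or miR-381-3p with A4G, and the copy of origin cannot be told apart. Of them, 24 were UC and 121 kit reads. miR-300-3p made up 47.1 to 67.5% of the reads of both miRNAs with UC (57.6% ± 7.23, SD, n = 12) and 30.9 to 50.2% with the kit (41.4% ± 5.88). miR-299a-3p and miR-299b-3p are identical over the 18 bases compared, so the 97 reads listed for the former are uncertain as to the copy, against 3 for the latter.

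The comparison of KA with control, made within each method and time, asks whether status epilepticus changed the members in EEFs. No member passed an adjusted p-value of 0.05 in any of the 4 comparisons with edgeR (26 members tested with UC and 37 with the kit), DESeq2 or limma-voom. Over all miRNAs tested, edgeR called 0.476% with UC at 24 h, 0.952% with UC at 2 weeks, and 0.0% with the kit at both times. When same-numbered libraries were blocked in the fit, 2 miRNAs in place of 0 were called with the kit at 2 weeks. With UC, 4 in place of 2 were called at 24 h and 6 in place of 4 at 2 weeks. None of these was a member. At an unadjusted p-value under 0.05, members numbered 0 of 26 with UC at 24 h, 1 of 26 with UC at 2 weeks, 3 of 37 with the kit at 24 h and 1 of 37 with the kit at 2 weeks. Among all miRNAs, 2.86%, 7.86%, 4.62% and 2.69% were under this threshold. The median log2 difference of the members was 0.01 with UC and 0.04 with the kit at 24 h, and 0.10 and −0.15 at 2 weeks. Over all miRNAs tested, it was 0.06 and 0.09 at 24 h, and 0.02 and −0.01 at 2 weeks.

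miR-541-5p measured 20479, 17765 and 20233 CPM in UC controls and 17730, 16314 and 18399 CPM after KA at 24 h, and 21305, 17007 and 18926 against 22969, 18322 and 19538 CPM at 2 weeks. In kit libraries it measured 24323, 27117 and 15010 CPM in controls and 14855, 14638 and 15305 CPM after KA at 24 h, and 18076, 14579 and 19104 against 17720, 15535 and 18773 CPM at 2 weeks. KA and control groups overlapped throughout. At 2 weeks, the KA library was the higher in 3 of 3 same-numbered pairs with UC, while pairs with the kit were mixed. At 24 h with the kit, a pair of control libraries lay above all others. There the log2 difference was −0.45 with a 95% interval of −0.97 to 0.07 (adjusted p = 0.838 with edgeR). The other intervals were −0.74 to 0.26 with UC at 24 h, −0.32 to 0.67 with UC at 2 weeks and −0.51 to 0.52 with the kit at 2 weeks, none of them including a 2-fold change.

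miR-410-3p measured 1982, 2819 and 2381 CPM in UC controls and 3561, 3083 and 2604 CPM after KA at 24 h, and 1967, 3390 and 2973 against 2858, 3048 and 4880 CPM at 2 weeks. In kit libraries it measured 9791, 5191 and 13315 CPM in controls and 7858, 17953 and 14423 CPM after KA at 24 h, and 8105, 12395 and 17568 against 9202, 18649 and 9186 CPM at 2 weeks. The kit libraries spread widely within each group, and KA and control overlapped throughout. At 2 weeks, same-numbered pairs were mixed in direction with both methods. The log2 differences were 0.28 and 0.64 at 24 h with UC and kit, and 0.48 and 0.03 at 2 weeks. The adjusted p-values were at least 0.670 with edgeR, and the widest interval, with the kit at 24 h, was −0.16 to 1.44.

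The single member under the unadjusted threshold with UC was miR-154-5p at 2 weeks, with 56.2, 106 and 152 CPM in controls and 119, 86.5 and 463 CPM after KA. The log2 difference was 1.30 (SE 0.53, unadjusted p = 0.0191 and adjusted p = 0.502 with edgeR). The library at 463 CPM stood alone, and without it the log2 difference was −0.06. With the kit at 2 weeks it was 0.18 (adjusted p = 0.998).

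With the kit at 24 h, miR-369-3p measured 693, 220 and 448 CPM in controls and 714, 1025 and 680 CPM after KA. The groups overlapped narrowly, and the log2 difference was 0.93 (SE 0.39, unadjusted p = 0.0248 and adjusted p = 0.838 with edgeR). miR-543-3p had 1, 2 and 2 reads in controls and 14, 6 and 4 after KA, a log2 difference of 1.76 (SE 0.72, unadjusted p = 0.0226 and adjusted p = 0.838 with edgeR). miR-299a-5p had 2, 1 and 1 reads in controls and none after KA (unadjusted p = 0.0344 and adjusted p = 0.838 with edgeR), counts at or under the floor of 3 reads per library. In the kit libraries at 2 weeks, miR-379-3p had 0, 2 and 12 reads in controls and 1, 1 and 1 after KA (log2 difference −2.44, SE 1.10, unadjusted p = 0.0377 and adjusted p = 0.998 with edgeR). The control library with 12 reads set this difference, and the log2 difference was −0.07 without it. The plot of KA differences shows the intervals of all members tested.

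**Figure D4:**
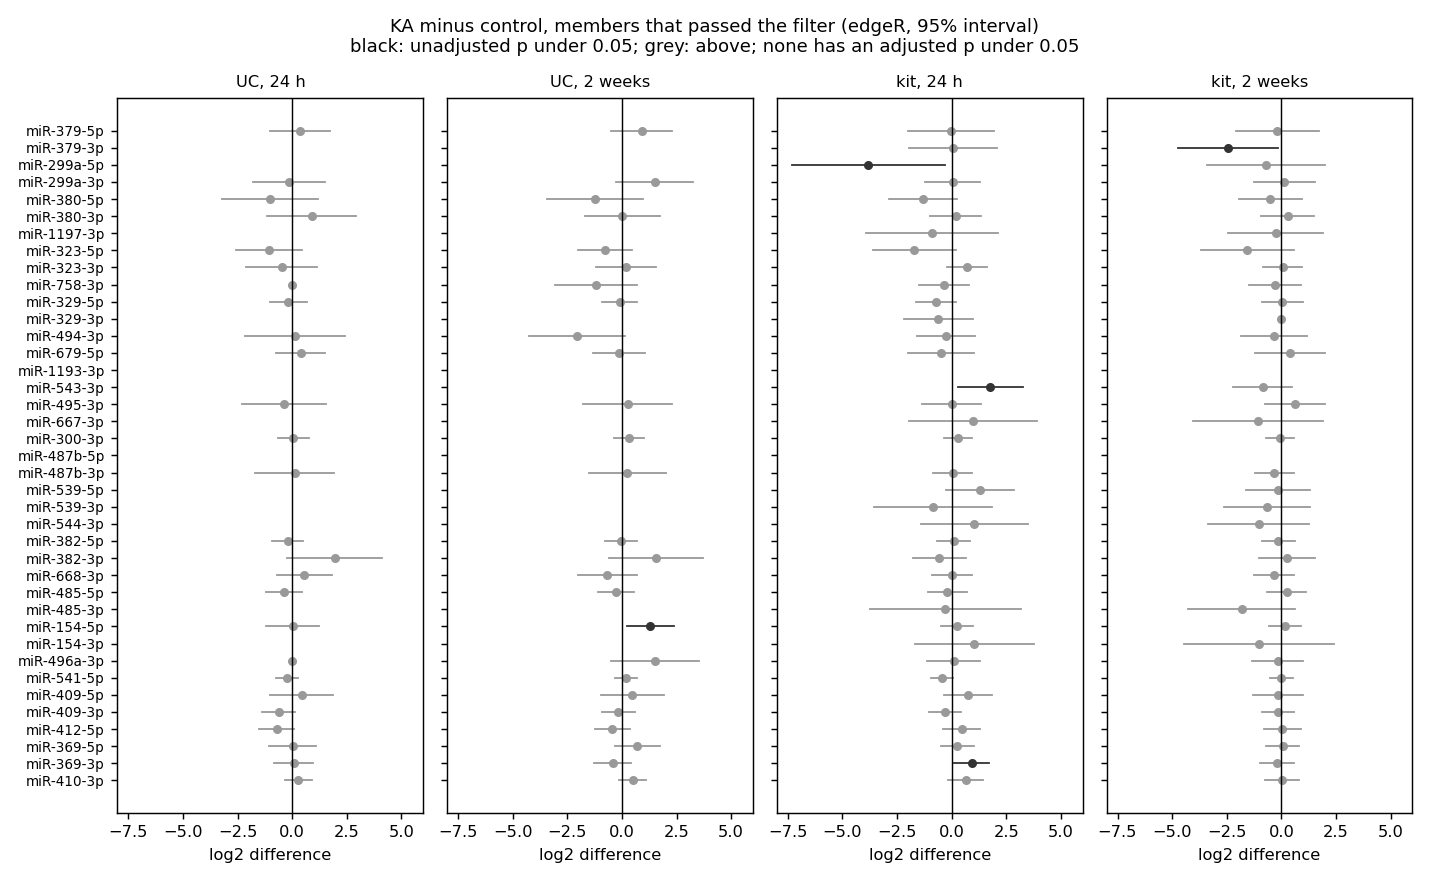
Log2 difference between KA and control (edgeR, 3 libraries against 3) for the members tested in each method and time, in cluster order, with the 95% interval as a line; black marks an unadjusted p under 0.05 and grey a value above it, and a point without a line had a difference too near 0 to derive an interval. No adjusted p is under 0.05, and the black points are the 5 named in the text.

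The interaction tests ask whether the KA effect differed between the times or between the methods. No member passed an adjusted p-value of 0.05 in edgeR, DESeq2 or limma-voom. edgeR called 0.476% of all miRNAs between the times with UC and 0.0% with the kit, and 0.0% between the methods at 24 h and at 2 weeks. At an unadjusted p under 0.05, 0 of 26 members differed between times with UC (6.9% of all miRNAs) and 2 of 37 with the kit (3.27%), miR-543-3p and miR-369-3p. Between the methods it was 1 of 26 at 24 h (2.27%), miR-382-3p, and 0 of 26 at 2 weeks (3.53%). These 3 are named after their values were seen, and the interactions are built from the same libraries as the KA comparisons above.

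The comparison of 2 weeks with 24 h likewise gave no member with an adjusted p under 0.05 in any of its 4 forms with edgeR, DESeq2 or limma-voom. Over all miRNAs, edgeR called 0.0% in UC controls, 0.952% in UC KA libraries, 0.0% in kit controls and 0.192% in kit KA libraries. With the replicate block, 9 miRNAs in place of 4 were called in UC KA libraries, none of them a member. At an unadjusted p under 0.05, the members were 0 of 26 in UC controls (4.05% of all miRNAs), 1 of 26 in UC KA libraries (10.5%), 1 of 37 in kit controls (3.65%) and 1 of 37 in kit KA libraries (3.08%). They were miR-154-5p (log2 difference 1.55, set by the library at 463 CPM named above), miR-369-3p (0.86) and miR-409-5p (−1.16), named after their values were seen. The median log2 differences of the members, in the same order, were −0.15, −0.07, 0.01 and −0.14.

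The share of the 3p arm in the reads of a hairpin does not depend on the library total. It was tested for 101 hairpins with at least 10 reads of both arms together in every library, 9 of which carry members. The exact permutation tests were made within the strata of the other factors. Between kit and UC, 43.6% of all hairpins tested were called at an adjusted p under 0.05, and 5 of the 9 member hairpins.

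In the hairpin of miR-369, the 3p arm made up 53.8 to 82.4% of reads with UC (67.8% ± 8.18, SD, n = 12) and 38.2 to 64.8% with the kit (53.6% ± 8.25, exact adjusted p = 0.000821). In that of miR-409, it was 79.3 to 97.7% with UC (89.7% ± 4.55, SD, n = 12) and 50.8 to 89.8% with the kit (77.4% ± 11.1, exact adjusted p = 0.000541). Both were thus lower with the kit. For miR-409, the kit libraries of replicate 1 were low, at 72.2, 50.8, 72.6 and 66.0%, and the difference was −6.30 percentage points without replicate 1 and still called, against −12.4 with all libraries. In the hairpin of miR-382, whose 5p arm dominates, the 3p share was higher with the kit, at 4.84 to 23.7% (11.9% ± 6.31, SD, n = 12) against 0 to 10.0% (3.83% ± 3.12, exact adjusted p = 0.00179), and in that of miR-329 it was 0 to 14.3% (7.30% ± 5.03) against 0 to 10.0% (1.65% ± 3.24, exact adjusted p = 0.0112, n = 12). The call of miR-329 was lost without replicate 1 and without replicate 2.

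In the hairpin of miR-410, nearly all reads were 3p, at 98.96 to 100% with UC against 99.88 to 100% with the kit, and the means of 99.97% ± 0.0376 (SD, n = 12) with the kit and 99.6% ± 0.345 with UC differed at an exact adjusted p of 0.00168. Only 26 5p reads stood against 54075 3p reads over all libraries. The hairpins of miR-300 (means of 98.7% with UC and 99.5% with the kit), miR-412 (0.309 and 0.710%), miR-485 (1.70 and 1.39%) and miR-541 (0.0108 and 0.0124%) did not pass the test. The ranges of UC and kit overlapped in every member hairpin, as the plot of arm shares shows.

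**Figure D5:**
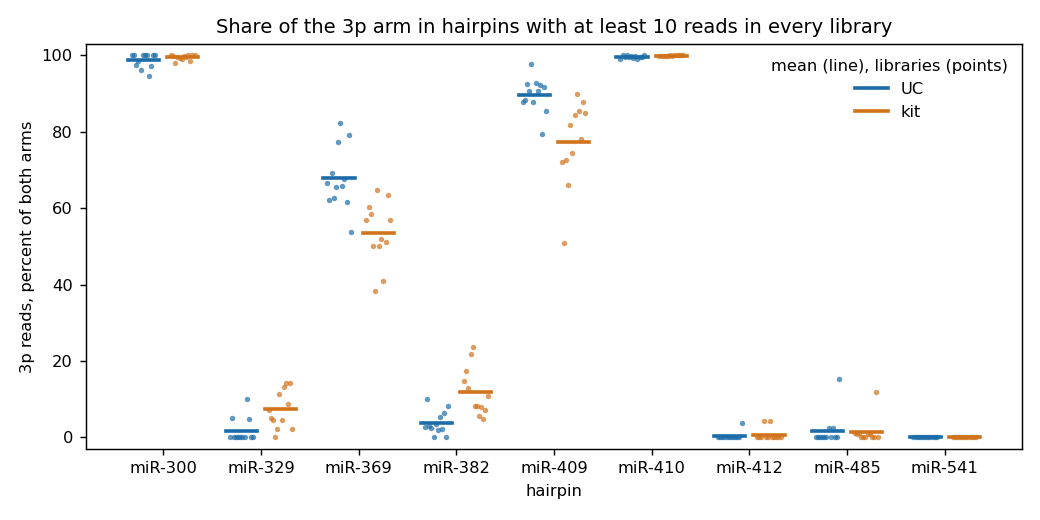
Percent of the reads of both arms that came from the 3p arm, for the 9 member hairpins tested, with 1 point per library and a line at the mean of the 12 UC (blue) or 12 kit (orange) libraries. The kit libraries lie lower for miR-369 (mean 53.6% against 67.8%) and miR-409 (77.4% against 89.7%) and higher for miR-382 (11.9% against 3.83%) and miR-329 (7.30% against 1.65%).

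No member hairpin changed its arm share with KA or with time at an adjusted p under 0.05, where 0.0% and 2.97% of all hairpins were called. The lowest p-value for KA was that of miR-410, where the 3p share was 99.9% ± 0.140 (SD, n = 12) after KA and 99.6% ± 0.373 in controls (exact p = 0.00139, adjusted p = 0.140). For miR-409, the share was 80.5% ± 12.0 (SD, n = 12) after KA and 86.6% ± 7.92 in controls (exact p = 0.0745, adjusted p = 0.878). Of the hairpins not tested, those of miR-154 (0.522% 3p, 95% Wilson interval 0.299 to 0.911%), miR-323 (85.2%, 82.0 to 87.8%) and miR-380 (78.4%, 73.4 to 82.6%) had fewer than 10 reads in some libraries, and these intervals cover counting error only.

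Reads with bases added or replaced at the 3′ end, known as products of tailing and trimming, made up 4.72% of member reads and 10.1% of all reads. miR-541-5p and miR-410-3p, which had at least 50 reads in every library, carried them in 4.74% and 1.95% of reads. The member share is set largely by these 2. miR-541-5p mostly had a single U (2582 of 4505 such reads), and the most frequent addition of miR-410-3p was a single A (463 of 1055). Over the 27 members with at least 50 reads in all, the median was 9.25%, against 12.3% over 370 miRNAs. High shares were those of miR-379-5p (75.5%, 95% Wilson interval 66.1 to 83.0%, 98 reads) and miR-487b-3p (47.4%, 41.6 to 53.4%, 274 reads).

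Between kit and UC, 43.2% of 74 miRNAs tested differed in this share, but miR-541-5p (4.67% ± 0.538 with the kit and 4.88% ± 0.585 with UC, exact adjusted p = 0.464, n = 12) and miR-410-3p (2.03% ± 0.296 and 1.94% ± 0.771, exact adjusted p = 0.741) did not pass the test. With KA and with time, 0.0% and 1.35% of miRNAs were called and neither member. miR-410-3p had the lower p-value for KA, with 1.72% ± 0.353 (SD, n = 12) after KA and 2.24% ± 0.642 in controls (exact p = 0.0120, adjusted p = 0.148).

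A-to-G changes within a mature miRNA are read as A-to-I editing by the adenosine deaminases ADAR. Sites were called by the rule in the study's methods (at least 10 reads, more G than an error rate of 0.01 gives, in at least 2 libraries of a group). Of 297 miRNAs with enough reads, 3.03% had such a site, and of the 19 members with enough reads none did. The highest level among the members was that of miR-379-5p, from a hairpin known to be edited, where A5G (counted from the 5′ end, within the seed printed above) was listed in 16 of 98 reads (16.3%, 95% Wilson interval 10.3 to 24.9%). These were 13 of 66 UC reads and 3 of 32 kit reads, from 10 libraries. Only 3 libraries, each of a different group, had 10 reads of miR-379-5p, so the rule could not be met at this depth and miR-379-5p is not among the 19. miR-300-3p had A7G in 41 of 4653 reads (0.881%, 0.650 to 1.19%), and miR-369-3p A5G in 6 of 2882 reads (0.208%, 0.0954 to 0.453%). In miR-541-5p and miR-410-3p, the deepest members, no A was changed to G in more than 0.0222% of reads, which is below the error rate assumed.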

How the data were processed

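Small RNA of 24 EEF libraries was counted by the authors with the Chimira server, which trims reads and maps them to miRBase version 21 hairpins, and the deposited values are raw counts of reads per mature miRNA and per base change or 3′ addition. How reads matching several hairpins were assigned is not given in the sources used here. Groups came from the labels (8 groups of 3). The study's methods call the 3 libraries of a group biological replicates of pooled hippocampi, so p-values measure the spread between pools. The members, lists and tests were chosen with earlier results of these data known.

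Counts were fitted over all miRNAs with edgeR 4.0.16 in R 4.3.3 (TMM factors, quasi-likelihood test, Benjamini-Hochberg adjustment over all miRNAs tested, CPM over 1 in at least 6 of 12 libraries). Within a method, the 4 groups shared 1 estimate of spread, and kit and UC were compared over all 24 libraries with the treatment by time group as covariate. Standard errors were derived from the F statistic and left out where p was over 0.995. DESeq2 1.42.0 and limma 3.58.1 were alternatives, and others changed the scaling, the filter, the libraries and the replicate block. Arm shares and 3′ additions were compared by two-sided exact permutation tests within the strata of the other factors (160000 permutations, smallest p 1.25e-05) in Python 3.11.15 with scipy 1.17.1, adjusted over all features tested. The tests were tried on simulated data. In the pairing check, deviations of same-numbered KA and control libraries from their group means correlated at 0.111 to 0.310 at 2 weeks and at −0.246 to 0.112 at 24 h. These correlations are weak, their ranges overlap, and no test of them was made. The numbers compared are those in the sample titles.

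Values are given for the 12 most abundant members, the 8 members with the lowest p in each direction between kit and UC, those with an unadjusted p under 0.05 in a KA comparison, and every member hairpin and A-to-G site tested. Total counts of 85436 to 676726 per library make low members imprecise. Wilson intervals of shares cover counting error only, whereas intervals of log2 differences come from the edgeR fit and include the spread between libraries.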

Additional observations from a re-analysis of the deposited data

How the results depend on the processing

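Between kit and UC, 19 members were called with edgeR, DESeq2, limma-voom, other scalings (RLE, library size) and the replicate block, 24 of 39 without a filter and 17 with control libraries only. With at least 10 counts in 6 libraries, 10 of the 11 members tested were called, 5 of them higher, as fewer members were tested. Over all miRNAs, 307 of 1073 were called without a filter, 211 of 397 with control libraries only and 163 of 193 with the 10-count filter. Leaving out 1 library at a time gave 17 to 19 calls. Uncalled members near 0 turned direction: miR-380-5p (limma-voom −0.043, controls only −0.084, without 1 library −0.20 to 0.19), miR-485-5p (stricter filter −0.021, controls only −0.11, without 1 library −0.11 to 0.12), miR-494-3p (RLE −0.0029, limma-voom −0.037, controls only −0.28, without 1 library −0.20 to 0.16) and miR-758-3p (without 1 library −0.032 to 0.37), all as log2. The cause was not tested.

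For KA, time and the interactions, 0 members were called under every alternative run. miR-154-5p with UC at 2 weeks was −0.062 to 1.71 (log2) without 1 library. The pairing of same-numbered libraries (replicate block) gave 19 member calls between kit and UC and changed no other call of a member, hairpin or addition share of the cluster. Of the arm shares, 3 to 5 hairpins were called without 1 replicate number, the lowest without replicate 2, when miR-329 and miR-410 were not called (miR-329 was also lost without replicate 1), and 3 with at least 20 reads, when miR-329 and miR-369 were not tested. With at least 20 reads, 1 of 5 members differed in 3′ additions (miR-409-3p, −4.17 percentage points, exact adjusted p = 0.0354). Over all features with at least 20 reads, 40 of 83 hairpins differed in arm share and 38 of 111 miRNAs in 3′ additions. Without 1 replicate number, 35 to 39 of all 101 hairpins were called. Without 1 replicate number, the arm difference between kit and UC was −17.0 to −6.30 for miR-409, called each time, −0.848 to 0.309 for miR-485 and −0.00669 to 0.00743 for miR-541, and the addition difference of miR-541-5p −0.579 to 0.00479 between kit and UC and −0.201 to 0.0196 between KA and control, in percentage points. With miR-127-3p left out of the total, the summed share was 3.25% with UC and 3.83% with the kit, with overlapping ranges. Depth limits the 18 members with fewer than 100 reads, whose intervals are wide.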

Other observations

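Some of the longer 3′ additions of the members ended in the same 7 bases, GAGGGAC. This end was listed for 241 of 170029 member reads (0.142%, against 0.265% over all miRNAs), in 18 of the 39 members and 21 libraries. Of these, 226 were kit and 15 UC reads. The end made up 3.00% of member reads with a changed 3′ end, against 2.62% over all miRNAs. It was uneven between members: miR-154-5p had it in 83 of 2286 reads (3.63%) and in 37.2% of its reads with a changed 3′ end, miR-369-5p in 19 of 2274 reads (0.836%), and miR-541-5p and miR-410-3p together in 20 of 149137 reads (0.0134%). Over all miRNAs it was listed for 14225 reads of 206 miRNAs, 13721 of them kit reads, which is 0.360% of kit reads and 0.0323% of UC reads. The end was noticed in the member data and counted afterwards, and its origin was not tested.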
